A study of Coccomyxa subellipsoidea C-169 with 6 samples.

Results

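COCSUDRAFT_48328 and COCSUDRAFT_58870 are 2 of the 9490 genes counted in the single-celled green alga Coccomyxa subellipsoidea C-169. Their product names are "Fatty acid elongase 3-ketoacyl-CoA synthase 1" for COCSUDRAFT_48328 and "Very-long-chain 3-oxoacyl-CoA synthase" for COCSUDRAFT_58870. They were chosen by those names and by their large differences in level between the OX-labelled and wild-type (WT) libraries. Their levels and fold changes are therefore given as a description, without a test. The libraries were 3 from cultures labelled as overexpressing CsubMADS1 (genotype "Overexpressor CsubMADS1 OX") and 3 from wild type. Both groups were harvested from stationary-phase cultures, 3 hours ahead of darkness. The labels call the 3 libraries of each group biological replicates. They do not give the promoter of the transgene or how many lines the OX-labelled cultures came from, so an effect of the labelled gene cannot be told apart from a change particular to 1 line.

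Fatty acid elongation lengthens acyl chains made in the plastid, turn by turn, at the endoplasmic reticulum. A 3-ketoacyl-CoA synthase (KCS) catalyses the first step of a turn, the condensation of an acyl-CoA with malonyl-CoA, and in plants this step is known to set the rate and the chain length. A ketoacyl-CoA reductase, a hydroxyacyl-CoA dehydratase and an enoyl-CoA reductase complete the turn. In plants and algae the very long chains go into sphingolipids, waxes, membrane lipids and surface polymers. Neither chain length nor enzyme activity was measured here, and the function of both genes rests on the product name.

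The 6 libraries held 3771499 to 5336375 counts each, with similar totals in the 2 groups. The gene with a MADS-box product name, COCSUDRAFT_67545, had 68.5, 59.0 and 54.8 CPM (count relative to library size, scaled by TMM) in the OX-labelled libraries, against 95.3, 80.2 and 85.0 CPM in the WT libraries. That this gene is CsubMADS1 was assumed from its product name. The OX-labelled libraries lay below all WT libraries, which on that assumption goes against the label. The difference missed the threshold (log2 fold change -0.51, SE 0.18, edgeR quasi-likelihood adjusted p = 0.0535). It passed in 6 of 14 other settings (adjusted p from 0.0295 to 0.168), and directions below are those of the labels. Whether the group labels are exchanged, or whether reads of a transgene would count at this gene, cannot be told from these counts. With exchanged labels every direction given below would turn round. A second principal component, with 19.6% of variance, set OX-labelled replicate 3 apart from replicates 1 and 2. In bulk RNA, a larger share of cells with a transcript and more transcript per cell cannot be told apart.

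COCSUDRAFT_48328 was near the lower end of what could be counted in WT and well counted in the OX-labelled libraries. It had 637, 491 and 355 counts in OX-labelled replicates 1, 2 and 3, against 11, 13 and 8 counts in WT replicates 1, 2 and 3. As levels these were 125, 110.1 and 89.3 CPM in the OX-labelled libraries, against 2.21, 2.74 and 2.02 CPM in the WT libraries. Every OX-labelled library lay far above every WT library, the lowest OX-labelled level being 32.6 times the highest WT level. Of all tested genes, 23.1% had every OX-labelled library above every WT library. The log2 fold change was 5.52, the seventh largest among the 8575 genes tested. As the pair was chosen for large differences, its ranks are description only. Within the OX-labelled group the highest level was 1.40 times the lowest, and OX-labelled replicate 3 was lowest.

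COCSUDRAFT_58870 had few counts in WT and an uneven level among the OX-labelled libraries. It had 61, 130 and 29 counts in OX-labelled replicates 1, 2 and 3, against 5, 2 and 7 counts in WT replicates 1, 2 and 3. The levels were 11.96, 29.1 and 7.29 CPM in the OX-labelled libraries, against 1.01, 0.421 and 1.77 CPM in the WT libraries. The groups did not overlap, as for 23.1% of all tested genes with the OX-labelled libraries above WT. The gap was narrower than for COCSUDRAFT_48328, the lowest OX-labelled level being 4.12 times the highest WT level. OX-labelled replicate 2 held 3.997 times the level of OX-labelled replicate 3. The log2 fold change was 3.93, with rank 20 among the 8575 tested genes, and 3.20 without OX-labelled replicate 2. Without WT replicate 2, whose 2 counts are below a floor of 3 counts, it was 3.52.

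**Figure D1:**
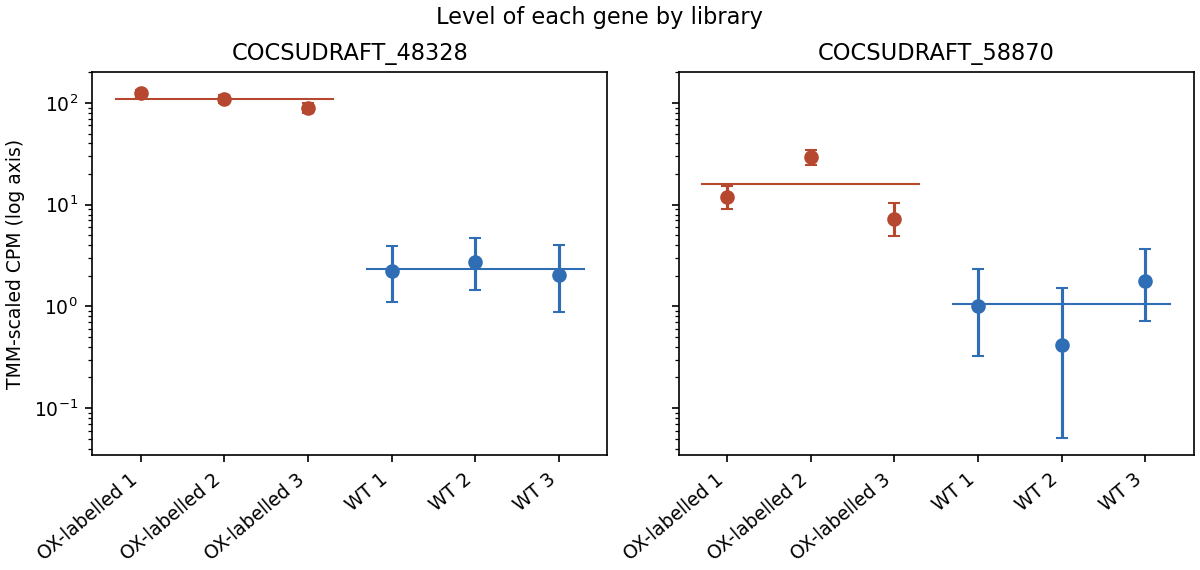
Level of COCSUDRAFT_48328 (left) and COCSUDRAFT_58870 (right) in each library, as TMM-scaled CPM on a log axis; points are libraries, bars are exact Poisson 95% counting intervals and lines are group means. Both genes lie higher in all 3 OX-labelled libraries than in any WT library, as do 23.1% of all tested genes. COCSUDRAFT_58870 spreads from 7.29 to 29.1 CPM among the OX-labelled libraries.

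Low counts set the precision in WT. Summed over each group, COCSUDRAFT_48328 had 1483 counts in the OX-labelled libraries and 32 in WT, a ratio of 46.8 after scaling (95% exact counting interval 33.0 to 68.7). COCSUDRAFT_58870 had 220 counts in the OX-labelled libraries and 14 in WT, a ratio of 15.9 (9.26 to 29.5). These intervals cover counting error only and leave out the spread between replicates. As the pair was chosen on this difference, they do not test it. In the OX-labelled group the levels of COCSUDRAFT_48328 had a coefficient of variation of 16.6%, where counting alone gives 4.498%, and those of COCSUDRAFT_58870 had 71.3%, where counting alone gives 11.7%. In WT the coefficients were 15.9% for COCSUDRAFT_48328 and 63.5% for COCSUDRAFT_58870, where counting alone gives 30.6% and 46.3%. Over all genes the fit gave a common biological coefficient of variation of 19.8%, for both groups together and with counting error left out. The 16.6% of COCSUDRAFT_48328 and the 71.3% of COCSUDRAFT_58870 in the OX-labelled group include counting error, so they are not the same measure. Reads that match similar KCS genes could also be split between them, which was not tested. Both genes passed the filter on low counts, for which the OX-labelled libraries alone were enough.

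The pair took a mean of 0.0121% ± 0.00183 of all counts in the OX-labelled libraries and 0.000348% ± 4.35e-05 in WT (SD, n = 3 each). By library the share was 0.0131%, 0.0132% and 0.00994% in OX-labelled replicates 1 to 3, against 0.000323%, 0.000322% and 0.000398% in WT replicates 1 to 3. The summed level of the pair was 137, 139 and 96.5 CPM in OX-labelled replicates 1, 2 and 3, lowest in replicate 3. Within the pair, COCSUDRAFT_48328 held 91.3% (exact 95% interval 88.9 to 93.2), 79.1% (75.7 to 82.2) and 92.4% (89.3 to 94.9) of the counts in OX-labelled replicates 1, 2 and 3. In WT replicates 1, 2 and 3 it held 68.8% (41.3 to 89.0), 86.7% (59.5 to 98.3) and 53.3% (26.6 to 78.7). The groups overlapped in this share. OX-labelled replicate 2 was the library with the lower share of its group, and its interval did not reach those of the other OX-labelled libraries.

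The files name 13 further genes as condensing enzymes of elongation. Of all 15, 4 are named 3-ketoacyl-CoA synthase, 2 fatty acid elongase 3-ketoacyl-CoA synthase 1, and 9 very-long-chain 3-oxoacyl-CoA synthase, of which 3 are marked as fragments. The pair held 4.37% (exact 95% interval 4.06 to 4.70), 3.65% (3.37 to 3.94) and 2.63% (2.37 to 2.90) of the counts of these 15 genes in OX-labelled replicates 1, 2 and 3. In WT replicates 1, 2 and 3 it held 0.109% (0.0625 to 0.177), 0.102% (0.0569 to 0.168) and 0.116% (0.0649 to 0.191). The pair thus remained a small part of the family's counts in both groups. Summed, the 13 other genes had 3416 ± 366 CPM in the OX-labelled libraries and 3104 ± 163 CPM in WT, and all 15 had 3540 ± 359 CPM in the OX-labelled libraries and 3107 ± 163 CPM in WT (SD, n = 3 each). Shares of counts and summed CPM weigh long transcripts more, and transcript lengths were not used here.

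**Figure D2:**
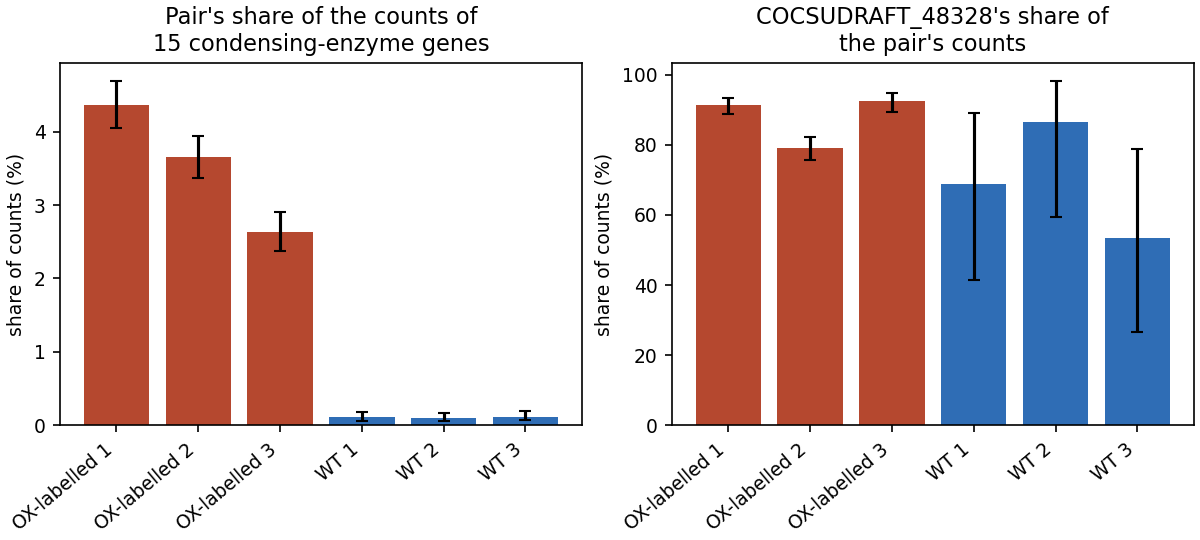
Left, share (%) of the counts of the 15 condensing-enzyme genes taken by the pair in each library; right, share (%) of the pair's counts taken by COCSUDRAFT_48328; error bars are exact 95% intervals. The pair's share is 2.63% to 4.37% in the OX-labelled libraries and 0.102% to 0.116% in WT, while the groups overlap in the right panel.

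Of the 13 other condensing-enzyme genes, 10 passed the filter on low counts, and 0 were called higher and 0 lower. Over all 8575 genes tested, 15.6% were called higher and 8.98% lower, 24.6% in all (edgeR quasi-likelihood test, Benjamini-Hochberg adjusted p under 0.05). Those shares stand for 1337 higher and 770 lower genes, and library size as the only scaling gave 1140 and 995. At an unadjusted p under 0.05 in edgeR, 1 of the 10 passed, COCSUDRAFT_12119, at 73.6, 80.2 and 61.1 CPM in the OX-labelled libraries, against 100.96, 81.5 and 108 CPM in WT (log2 fold change -0.43, SE 0.19, edgeR adjusted p = 0.115). Its groups did not overlap, as for 19.8% of all tested genes with the OX-labelled libraries below WT. DESeq2 and limma-voom also called 0 of them. The median log2 fold change of the 10 was 0.07, with a range of -0.43 to 0.56, against -0.0028 over all genes tested. Their 95% intervals, unadjusted for the number of genes, reached from -0.84 to 1.19 on the log2 scale. Of the 10, 7 had a fold change above 0, of which COCSUDRAFT_29543 and COCSUDRAFT_12451 turned below 0 when scaled by library size alone.

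The gene that shares its product name with COCSUDRAFT_48328 gave other values. COCSUDRAFT_29543 had 16.7, 13.2 and 11.3 CPM in the OX-labelled libraries, against 13.9, 11.8 and 14.4 CPM in WT. The groups overlapped, and the log2 fold change was 0.05 (95% interval -0.49 to 0.59, SE 0.25, adjusted p = 0.91 in edgeR), or -0.027 with library size only. The 3-ketoacyl-CoA synthase gene COCSUDRAFT_26029 had 1573, 2053 and 1880 CPM in the OX-labelled libraries, against 1580, 1683 and 1756 CPM in WT. Its groups overlapped too (log2 fold change 0.13, SE 0.18, edgeR adjusted p = 0.615). COCSUDRAFT_64433, also named 3-ketoacyl-CoA synthase, had 755, 871 and 1025 CPM in the OX-labelled libraries, against 673, 702 and 682 CPM in WT. Its OX-labelled libraries all lay above WT, as for 23.1% of all tested genes, but it did not pass (log2 fold change 0.37, SE 0.18, edgeR adjusted p = 0.151). The largest fold change among the 10 was that of COCSUDRAFT_58877, at 16.9, 30.9 and 18.6 CPM in the OX-labelled libraries, against 13.3, 12.2 and 19.7 CPM in WT (log2 fold change 0.56, SE 0.29, edgeR adjusted p = 0.177).

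The remaining 3 condensing-enzyme genes did not pass the filter on low counts. COCSUDRAFT_18466 had 6, 6 and 10 counts in the OX-labelled libraries, against 7, 6 and 7 counts in WT. COCSUDRAFT_57989 had 0 counts in the 3 OX-labelled libraries, against 1, 0 and 2 counts in WT. COCSUDRAFT_44199 had 0, 1 and 3 counts in the OX-labelled libraries, against 0 counts in the 3 WT libraries. The groups of COCSUDRAFT_18466 overlapped. COCSUDRAFT_57989 and COCSUDRAFT_44199 had at most 3 counts in any library, too few to compare the groups. A floor of 3 counts stands for 0.588 to 0.759 CPM across the libraries. In edgeR without the filter on low counts, 0 of the condensing-enzyme genes other than the pair were called.

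The lists of other elongation steps held 3 genes. The dehydratase step had 2 of them, named very-long-chain (3R)-3-hydroxyacyl-CoA dehydratase. COCSUDRAFT_14404 had 147, 164 and 128 CPM in the OX-labelled libraries, against 74.4, 91.6 and 78.1 CPM in WT, and was called higher (log2 fold change 0.84, SE 0.18, edgeR adjusted p = 0.006). Its call was lost without WT replicate 1 (edgeR adjusted p = 0.0514) and held in the other 13 settings. COCSUDRAFT_83443 had 17.5, 19.5 and 14.6 CPM in the OX-labelled libraries, against 21.9, 20.2 and 22.5 CPM in WT, and did not pass (log2 fold change -0.32, edgeR adjusted p = 0.293). COCSUDRAFT_54657, a steroid dehydrogenase-like gene that the name pattern let in, did not pass either (log2 fold change 0.04, edgeR adjusted p = 0.906). Of all 13 tested genes of the elongation lists other than the pair, COCSUDRAFT_54657 included, 1 was called higher and 0 lower. Over all tested genes, 15.6% were called higher and 8.98% lower. No listed gene was named a ketoacyl-CoA reductase or an enoyl-CoA reductase, so those steps were not assessed by name.

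**Figure D3:**
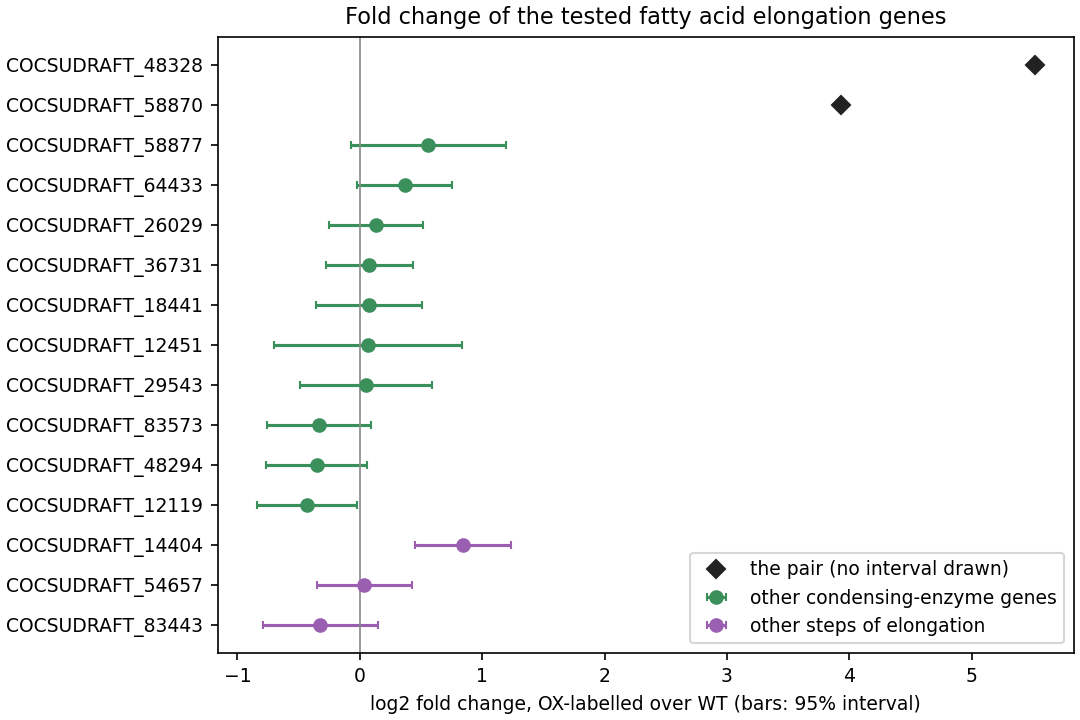
Log2 fold change, OX-labelled over WT, of the pair and of the 13 other tested genes of the elongation lists, COCSUDRAFT_54657 included. Bars are unadjusted 95% intervals, not drawn for the pair, which was chosen on these values. The pair lies at 5.52 and 3.93, the 10 other condensing-enzyme genes between -0.43 and 0.56 (those of COCSUDRAFT_29543 and COCSUDRAFT_12451 turn below 0 with library size only), and the dehydratase gene COCSUDRAFT_14404 at 0.84.

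Genes for the supply and use of elongated chains were listed by product name. Of the 4 fatty acyl-CoA reductase genes, whose enzymes in plants and animals reduce acyl-CoA to the fatty alcohols of waxes, 2 were called higher and 0 lower, against 15.6% and 8.98% of all tested genes (median log2 fold change 1.15). COCSUDRAFT_65878 had 85.5, 81.1 and 84.7 CPM in the OX-labelled libraries, against 30.6, 29.7 and 42.0 CPM in WT (log2 fold change 1.30, SE 0.19, edgeR adjusted p = 0.000774). COCSUDRAFT_46011 had 19.2, 20.6 and 36.7 CPM in the OX-labelled libraries, against 10.7, 10.1 and 9.86 CPM in WT (log2 fold change 1.31, SE 0.28, edgeR adjusted p = 0.00621). Both kept their calls in all 14 other settings. COCSUDRAFT_48572 and COCSUDRAFT_55211 did not pass (log2 fold changes 0.40 and 1.01, edgeR adjusted p = 0.161 and 0.0984). The call of COCSUDRAFT_55211 was gained without OX-labelled replicate 3 (edgeR adjusted p = 0.0253).

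Of 4 genes for acyl activation and acyl-CoA binding, 1 was called higher and 0 lower, against 15.6% and 8.98% of all tested genes (median log2 fold change 0.46). This was COCSUDRAFT_12949, a long-chain-fatty-acid CoA ligase, which makes the acyl-CoA that elongation uses. It had 148, 127 and 172 CPM in the OX-labelled libraries, against 85.3, 68.0 and 88.8 CPM in WT (log2 fold change 0.89, SE 0.19, edgeR adjusted p = 0.0061), and was called in all 14 other settings. The acyl-CoA-binding protein COCSUDRAFT_67706 did not pass (log2 fold change 0.45, edgeR adjusted p = 0.196) except without OX-labelled replicate 3 (edgeR adjusted p = 0.0113). Of 5 tested genes for sphingolipid synthesis, 0 were called higher and 0 lower by edgeR, with 1 at an unadjusted p under 0.05 (median log2 fold change -0.21). That gene, the serine C-palmitoyltransferase COCSUDRAFT_34890, was called lower without OX-labelled replicate 1 (log2 fold change -1.02, edgeR adjusted p = 0.0361), and no sphingolipid gene named by the rule was called by DESeq2 or limma-voom.

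Of 16 genes for plastid fatty acid synthesis, which supplies the chains that are elongated, 0 were called higher and 3 lower, against 15.6% and 8.98% of all tested genes (median log2 fold change 0.01). The plastid acyl-ACP desaturase COCSUDRAFT_53735 fell to 3602 ± 669 CPM in the OX-labelled libraries, against 6536 ± 297 CPM in WT (SD, n = 3 each, log2 fold change -0.86, SE 0.19, edgeR adjusted p = 0.00626), in each other setting too. The ketoacyl-ACP synthase III COCSUDRAFT_54940, which starts chain synthesis, fell to 52.8 ± 13.6 CPM in the OX-labelled libraries, against 97.0 ± 16.9 CPM in WT (SD, n = 3 each, edgeR adjusted p = 0.0158). Its call was lost without WT replicate 1 (edgeR adjusted p = 0.0504) and without WT replicate 3 (0.0637). The acyl carrier protein COCSUDRAFT_52715 fell to 622 ± 68.6 CPM in the OX-labelled libraries, against 926 ± 128 CPM in WT (SD, n = 3 each, edgeR adjusted p = 0.0385). That call was lost without OX-labelled replicate 1 (edgeR adjusted p = 0.0963), WT replicate 1 (0.132) or WT replicate 2 (0.118). The ketoacyl-ACP synthase I COCSUDRAFT_54810 missed the threshold (log2 fold change -0.48, edgeR adjusted p = 0.0578) and passed as lower in 6 of 14 other settings (adjusted p from 0.0297 to 0.186 over the 14).

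Of 26 tested genes for desaturases and cytochrome b5, which insert double bonds and pass on the electrons for it, 3 were called higher and 3 lower, against 15.6% and 8.98% of all tested genes (median log2 fold change 0.04). The name pattern also let in 2 of these 6, named here after their values were seen. The carotenoid gene COCSUDRAFT_35471, a zeta-carotene desaturase, was higher (log2 fold change 0.72, edgeR adjusted p = 0.0334), and the cytochrome P450 C-22 desaturase COCSUDRAFT_29437, of a class that acts on sterols, was lower (log2 fold change -0.56, edgeR adjusted p = 0.0434). COCSUDRAFT_47044, with a fatty acid desaturase domain, was the gene of the lists with the largest fold change. It had 36.7, 43.5 and 37.2 CPM in the OX-labelled libraries, against 3.22, 3.37 and 1.26 CPM in WT (log2 fold change 3.86, SE 0.31, edgeR adjusted p = 1.47e-05), in each other setting too. Cytochrome b5, COCSUDRAFT_31572, fell to 293 ± 41.9 CPM in the OX-labelled libraries, against 526 ± 61.8 CPM in WT (SD, n = 3 each, edgeR adjusted p = 0.00665). NADH-cytochrome b5 reductase, COCSUDRAFT_42152, rose to 54.5 ± 3.99 CPM in the OX-labelled libraries, against 27.9 ± 7.81 CPM in WT (SD, n = 3 each, edgeR adjusted p = 0.00875), a call lost without WT replicate 1 (0.0664) or WT replicate 3 (0.0604). The omega-3 desaturase COCSUDRAFT_67054 fell to 361 ± 94.1 CPM in the OX-labelled libraries, against 597 ± 9.34 CPM in WT (SD, n = 3 each, edgeR adjusted p = 0.0251). That call was lost without OX-labelled replicate 1 (edgeR adjusted p = 0.0721) and without WT replicate 1, 2 or 3 (0.0678, 0.067 and 0.0688).

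Among 6 genes for beta-oxidation, which shortens acyl chains, 1 was called higher and 1 lower, against 15.6% and 8.98% of all tested genes, and both are named acyl-CoA dehydrogenase. COCSUDRAFT_53625 had 59.6, 43.9 and 50.8 CPM in the OX-labelled libraries, against 17.1, 26.1 and 27.1 CPM in WT (log2 fold change 1.14, SE 0.23, edgeR adjusted p = 0.00438). COCSUDRAFT_36129 fell to 16.9 ± 3.23 CPM in the OX-labelled libraries, against 27.5 ± 4.17 CPM in WT (SD, n = 3 each, edgeR adjusted p = 0.0424). Its call was lost with the replicate number as a block (edgeR adjusted p = 0.0601), without OX-labelled replicate 1 (0.143) and without WT replicate 1, 2 or 3 (0.159, 0.0894 and 0.0608). Of 10 genes for glycerolipid synthesis 0 were called by edgeR, with 2 at an unadjusted p under 0.05, and the 4 of lowest p were not called by DESeq2 or limma-voom. Of those 4, the monogalactosyldiacylglycerol synthase COCSUDRAFT_35261, was called lower without OX-labelled replicate 2 (log2 fold change -0.71, edgeR adjusted p = 0.027). Of 5 in a list of thiolase-fold names 1 was called higher by edgeR, the chalcone isomerase COCSUDRAFT_33904, which is no thiolase-fold enzyme (log2 fold change 0.56, edgeR adjusted p = 0.0376). Its call was lost in 7 of 14 other settings: library size only (edgeR adjusted p = 0.0506), no filter on low counts (0.0502), and without OX-labelled replicate 1 or 2 (0.0871 and 0.0802) or WT replicate 1, 2 or 3 (0.169, 0.0737 and 0.163). The thiolase-like gene COCSUDRAFT_45842 was called higher only without OX-labelled replicate 3 (edgeR adjusted p = 0.012, against 0.367 with all 6 libraries). In all, 9 genes of the 10 lists were called higher and 7 lower among 89 tested, so the lists did not hold more calls than the 15.6% higher and 8.98% lower over all tested genes. Without OX-labelled replicate 3 these counts were 14 and 11, and without WT replicate 1 they were 5 and 2.

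**Figure D4:**
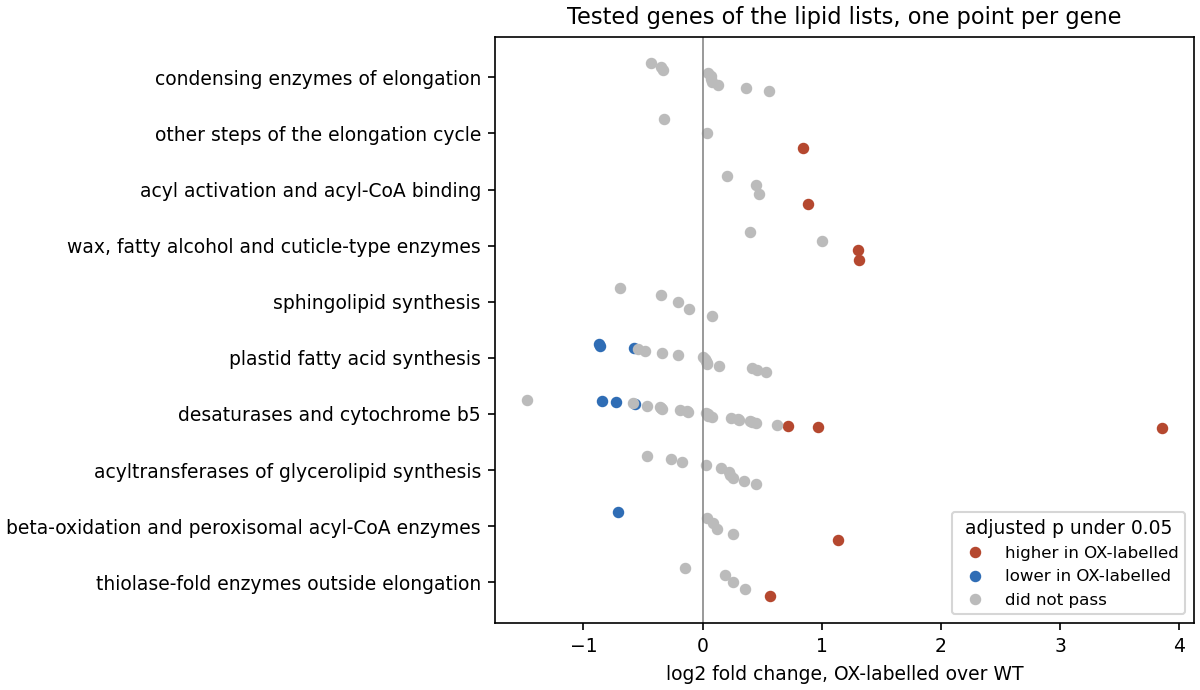
Log2 fold change, OX-labelled over WT, of each tested gene in the 10 lists of lipid genes, the pair left out; colours mark genes called higher or lower (edgeR adjusted p under 0.05). No condensing-enzyme gene is called, 2 of 4 fatty acyl-CoA reductase genes are called higher, and the desaturase-domain gene COCSUDRAFT_47044 lies farthest out at 3.86. Over all tested genes, 15.6% are called higher and 8.98% lower.

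In the RefSeq gene order, used here for neighbours only, COCSUDRAFT_58870 shared its scaffold with 5 other condensing-enzyme genes. COCSUDRAFT_58877 lay 7 genes away, COCSUDRAFT_12119 lay 8, COCSUDRAFT_64433 lay 16, COCSUDRAFT_12451 lay 46 and COCSUDRAFT_83573 lay 99 genes away. Of these 5, 0 were called in edgeR, DESeq2 or limma-voom, with 1 at an unadjusted p under 0.05 in edgeR. Over all tested genes edgeR called 24.6% in either direction, so 0 of 5 genes is too few to set them apart. The fold changes of the 5 ran from -0.43 to 0.56 on the log2 scale. COCSUDRAFT_48328 lay on another scaffold with 1 other condensing-enzyme gene, COCSUDRAFT_48294, 116 genes away. That gene had 115, 164 and 117 CPM in the OX-labelled libraries, against 176, 174 and 155 CPM in WT, and did not pass (log2 fold change -0.35, edgeR adjusted p = 0.196). No annotated gene overlapped either gene of the pair.

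Of the 4 nearest neighbours of each gene, 1 was called, beside COCSUDRAFT_58870. On both sides of COCSUDRAFT_48328, the 3 tested genes among the nearest 4 did not pass, with log2 fold changes from -0.49 for COCSUDRAFT_57160 to -0.18 for COCSUDRAFT_17735. Among the 4 nearest of COCSUDRAFT_58870, COCSUDRAFT_52307 was called higher, an uncharacterized gene that lay 2 genes away. It had 12.4, 20.2 and 9.55 CPM in the OX-labelled libraries, against 3.82, 3.79 and 2.02 CPM in WT (log2 fold change 2.10, SE 0.37, edgeR adjusted p = 0.00214), in each other setting too. As for COCSUDRAFT_58870, OX-labelled replicate 2 was highest and OX-labelled replicate 3 lowest. Genes called lower, such as COCSUDRAFT_53735 and COCSUDRAFT_52715, had this order too, and the share of all genes with it was not counted. The other 3 of the 4 nearest did not pass, with log2 fold changes from -0.41 for COCSUDRAFT_64442 to 0.37 for COCSUDRAFT_58869. Without OX-labelled replicate 3, COCSUDRAFT_64442 passed as lower (edgeR adjusted p = 0.0495). Of the 10 genes on each side, 2 of 15 tested were called higher and 3 lower around COCSUDRAFT_48328, and 3 of 12 tested were called higher and 1 lower around COCSUDRAFT_58870, against 15.6% higher and 8.98% lower over all tested genes.

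Genes with the most similar pattern were found by the smallest root mean square difference over the 6 libraries in log2 CPM relative to the WT mean. The groups dominate this measure, so it is a description. For COCSUDRAFT_48328 the nearest were the uncharacterized genes COCSUDRAFT_61842 (difference 0.463) and COCSUDRAFT_61841 (0.532). COCSUDRAFT_61842 had 40.2, 37.4 and 33.2 CPM in the OX-labelled libraries, against 0, 0.842 and 0.253 CPM in WT, highest in OX-labelled replicate 1 and lowest in replicate 3 as for COCSUDRAFT_48328. Next came the BTB domain gene COCSUDRAFT_60007 (0.576), the outer dynein arm gene COCSUDRAFT_14688 (0.740) and the chlorophyll a-b binding protein COCSUDRAFT_66689 (0.785). In WT, COCSUDRAFT_61842 had 0, 4 and 1 counts, COCSUDRAFT_61841 had 5, 2 and 0, and COCSUDRAFT_60007 had 0, 0 and 0. So near the floor of 3 counts, the prior count of 2 weighs on the measure. The edgeR log2 fold changes of COCSUDRAFT_60007 and COCSUDRAFT_61842 were 8.54 and 6.56, against 5.52 for COCSUDRAFT_48328. For COCSUDRAFT_58870 the nearest were the uncharacterized gene COCSUDRAFT_57798 (0.554) and the plasma membrane intrinsic protein COCSUDRAFT_55575 (0.667), a name given to aquaporins. COCSUDRAFT_57798 had 14.1, 15.7 and 3.02 CPM in the OX-labelled libraries, against 1.01, 0.211 and 1.77 CPM in WT. Its OX-labelled replicates 1 and 2 were close, where COCSUDRAFT_58870 had 11.96 and 29.1 CPM. The measure uses these same libraries, so an order of replicates shared with the pair is partly built in. The uncharacterized genes COCSUDRAFT_64096 (0.674), COCSUDRAFT_62976 (0.708) and COCSUDRAFT_65342 (0.736) followed. The 2 genes of the pair were less like each other, with a difference of 1.56 on the log2 scale. COCSUDRAFT_58870 was number 24 in likeness to COCSUDRAFT_48328 among 8574 genes, and COCSUDRAFT_48328 was number 311 in likeness to COCSUDRAFT_58870.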

How the data were processed

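The files deposited by the authors hold raw counts per gene, not normalized, 1 file per library. HTSeq, HISAT, Trim Galore and FastQC appear in the submitters' processing notes, with no version, and the labels' protocols name a directional library kit. The sources used here give no genome build, strand setting or rule for reads that match several genes, so reads shared by similar KCS genes may be split uncertainly. Each of the 9490 locus tags was found in RefSeq's annotation (GCF_000258705.1), which served for gene order only. No sequences were analysed here.

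The counts went into edgeR 4.0.16 (R 4.3.3) for all genes together: filterByExpr (8575 genes kept), TMM, and a two-sided robust quasi-likelihood F test between the groups, Benjamini-Hochberg adjusted, threshold 0.05. Dividing the log2 fold change by the root of F gave SE. An exact test of 3 against 3 libraries cannot go below 0.1 and was not used. log2 CPM has a prior count of 2. Shares have exact 95% intervals (Clopper-Pearson) that, as with the 3-count floor, allow for counting error alone. Every pair of libraries differed beyond sampling noise (lowest chi-square per degree of freedom 6.97). Of the 14 other settings, some changed the scaling (RLE, upper quartile or library size only). Others changed the filter (none, or at least 1 CPM in 3 libraries) or the test (DESeq2 1.42.0, or limma-voom in limma 3.58.1). The rest took the replicate number as a block or left out 1 of the 6 libraries. The script was tested on simulated data.

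Named genes were the pair, the MADS-box gene, all listed elongation genes, up to 4 genes of lowest p in each other list, the 5 nearest in pattern to each of the pair and the 2 neighbours on each side. The text names part of these, and the windows of 10 genes were chosen after values were seen. The pair and the 10 lists, made by patterns on product names, were chosen with earlier results of these data known.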

Additional observations from a re-analysis of the deposited data

How the results depend on the processing

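Over the 14 other settings the pair's log2 fold changes ran from 5.40 to 5.63 for COCSUDRAFT_48328 and from 3.20 to 4.40 for COCSUDRAFT_58870. The pair's share of library counts was 34.7 times higher in the OX-labelled libraries, and 33.1 to 37.7 times with 1 library left out. The pair was chosen on its difference in these same libraries. These ranges therefore describe how its size depends on the setting and do not test the difference. None of the 10 tested condensing-enzyme genes other than the pair was called in any setting. The edgeR fit described above called 24.6% of all tested genes. With 1 library left out, 737 to 1627 genes were called higher, 313 to 1232 lower and 1050 to 2859 in all, against 1337, 770 and 2107 with all 6 libraries. In the same fits 0 to 1 other elongation genes and 5 to 14 listed lipid genes were called higher, and 2 to 11 listed lipid genes lower. At an adjusted p under 0.01, 760 genes were higher and 206 lower, 966 in all, with 2 listed lipid genes lower. With library size only as scaling, 1140 genes were higher and 995 lower. Leaving out 12 list members judged stray by name, an alternative chosen after seeing the data, gave 7 higher and 6 lower.

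Deviations from group means of same-numbered libraries correlated at -0.16, 0.15 and 0.06 over genes, and not every library correlated best with its own number. With 3 libraries per group such deviations depend on each other, so whether the replicate numbers mark shared batches cannot be told from them. With the replicate number as a block, 2098 genes were called, 1297 higher and 801 lower, and the fold changes of the pair were 5.52 and 3.78.

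For 63 other named genes, 827 of 882 values kept direction and side of the threshold, 24 lost a call, 18 gained one and 13 turned sign, of genes that did not pass. These were COCSUDRAFT_18441 (-0.11 without WT replicate 1), COCSUDRAFT_29543 (-0.027 with library size only, -0.12 without OX-labelled replicate 1, -0.057 without WT replicate 2), COCSUDRAFT_12451 (-0.0023 with library size only, -0.030 without OX-labelled replicate 1, -0.050 without WT replicate 3) and COCSUDRAFT_54657 (-0.036 with library size only, -0.072 without OX-labelled replicate 1, -0.071 without WT replicate 1, -0.020 without WT replicate 3). They were also COCSUDRAFT_58985 (0.15 without WT replicate 3) and COCSUDRAFT_54823 (-0.0027 without WT replicate 2). With 1 library left out, the highest values were 0.25, 0.17, 0.18, 0.11 and 0.27 for COCSUDRAFT_18441, COCSUDRAFT_29543, COCSUDRAFT_12451, COCSUDRAFT_54657 and COCSUDRAFT_54823, and the lowest for COCSUDRAFT_58985 was -0.48. The cause was not tested. Shares per transcript length, relatives by sequence and promoter motifs, planned at the outset, were not run.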

Other observations

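Ranked by Pearson correlation of log2 CPM over the 6 libraries in place of the root mean square difference, 0 of the 5 nearest genes were shared for either gene of the pair. For COCSUDRAFT_48328 the nearest by correlation were the phosphoglycerate mutase-like gene COCSUDRAFT_14103, the aldo/keto reductase COCSUDRAFT_34922 and the glucokinase COCSUDRAFT_32768, an enzyme that phosphorylates glucose. COCSUDRAFT_34922 had 121, 96.6 and 98.1 CPM in the OX-labelled libraries, against 5.63, 5.69 and 5.06 CPM in WT. COCSUDRAFT_32768 had 185, 193 and 173 CPM in the OX-labelled libraries, against 49.1, 48.9 and 44.8 CPM in WT. For COCSUDRAFT_58870 the nearest with an informative name was the protein phosphatase methylesterase gene COCSUDRAFT_19971, at 47.1, 51.1 and 41.2 CPM in the OX-labelled libraries, against 31.0, 29.3 and 33.6 CPM in WT. The libraries fall into the 2 groups, so these correlations mostly follow the difference between the groups, and they are given without a value.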
